A study of Mus musculus with 2 samples.

Results

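The genes of the visual cycle were examined in chromatin accessibility maps of adult mouse neural retina. The 9 members, Rdh8, Rdh12, Rdh5, Abca4, Rbp3, Rlbp1, Rpe65, Lrat and Rgr, were listed by name, and all 9 were found among the 21887 protein-coding genes of the GRCm38 gene table. The data are ATAC-seq, in which the transposase Tn5 places adapters into open chromatin and each read marks 1 insertion. There was 1 library from wild-type retina and 1 from retina of a Gabra3 knockout littermate, both from adult C57BL/6 mice. Gabra3 encodes a subunit of GABA-A receptors, and neither the kind of knockout allele nor the number of mice behind a library is given in the labels. Each library was made from 20000 nuclei of flash-frozen tissue. With 1 library per genotype there is no replicate check, no test and no p-value: each ratio below compares those libraries, and its exact 95% interval (Clopper-Pearson) covers counting error only.

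The visual cycle rebuilds the chromophore of the visual pigments. Light turns 11-cis-retinal into all-trans-retinal, which photoreceptors reduce to retinol and hand to the retinal pigment epithelium, where it is esterified, isomerised and oxidised back to 11-cis-retinal. In the photoreceptor, ABCA4 flips retinal conjugates across the disc membrane, and the retinol dehydrogenases RDH8 and RDH12 reduce all-trans-retinal. RBP3, the interphotoreceptor retinoid-binding protein, is secreted by photoreceptors and carries retinoids between the cell layers. In the pigment epithelium, LRAT esterifies retinol, RPE65 isomerises the ester and RDH5 oxidises 11-cis-retinol. RLBP1 (CRALBP) binds 11-cis-retinoids, and RGR is an opsin that binds all-trans-retinal. RLBP1 and RGR are known from Muller glia as well as from the pigment epithelium. Neural retina is dissected away from the pigment epithelium, so the members fall into 4 genes of cells that were in the tissue and 5 genes known mainly from cells that were largely removed or from Muller glia.

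The libraries were of nearly equal depth, with 7635799 wild-type and 7646373 knockout insertions, or 2.80 and 2.81 per kb of genome. Of the autosomal insertions, 19.6% and 18.8% lay in the 36825 regions called open on the summed libraries. Each ratio is the log2 of knockout to wild type after scaling to the insertions in those regions, and scaling to all autosomal insertions would lower every ratio by 0.06. Gene ends, here and below, are windows of 500 bp either side of whichever end of the annotated gene held more insertions. The ends of 15 rod markers held 1475 wild-type and 1316 knockout insertions, and an open region lay at the locus of each. The ends of 12 Muller glia markers held 379 and 338, with fewer than 20 insertions summed at 4 of them. An open region lay at the locus of 11 of the 12. The ends of 14 pigment epithelium markers held 324 and 323, with 7 of the 14 under 20 insertions summed. An open region lay at the locus of 9 of the 14. Of the pigment cell markers near 0 at the end, Tyr held 4 and 1, Best1 4 and 4, Mlana 3 and 4, Oca2 3 and 5 and Slc45a2 6 and 6. Low ends did not always mean a closed locus. Best1 had 4 open regions, with 283 and 255 insertions over its gene body with 5 kb either side, and Oca2 had 2. Tyr, Mlana and Slc45a2 had 0. Most of the sum over the pigment epithelium marker ends came from Mitf (118 and 124) and Pmel (104 and 88), named here after their values were seen.

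Sequence before the start is shown for the 5 members whose start in the RefSeq promoter table (GRCm38.p6) is also the outermost end of the gene, because these include the starts with most and with few insertions. Each run holds the 250 bases before the start, 5′ to 3′ on the strand of the gene. Capitals mark matches on either strand to the motifs searched, which were TAATCC (core bound by CRX and OTX2, homeodomain factors of photoreceptors), TGCTGA (MAF family, NRL among them), CATGTG and CACGTG (E-boxes), ACAATG (SOX factors), AGGTCA (nuclear receptors) and GGGCGG (GC box).
Rdh8, chr9:20818244-20818493, plus strand: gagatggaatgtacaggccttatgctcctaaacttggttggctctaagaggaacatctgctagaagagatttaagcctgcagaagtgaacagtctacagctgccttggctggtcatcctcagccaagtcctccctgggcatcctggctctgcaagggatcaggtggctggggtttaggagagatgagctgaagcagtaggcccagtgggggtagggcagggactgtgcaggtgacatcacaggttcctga
Rdh12, chr12:79208663-79208912, plus strand: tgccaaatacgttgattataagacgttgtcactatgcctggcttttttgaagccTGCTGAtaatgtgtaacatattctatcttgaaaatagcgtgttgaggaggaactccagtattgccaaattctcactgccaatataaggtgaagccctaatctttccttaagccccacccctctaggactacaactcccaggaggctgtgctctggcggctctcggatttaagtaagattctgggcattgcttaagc
Rbp3, chr14:33953753-33954002, plus strand: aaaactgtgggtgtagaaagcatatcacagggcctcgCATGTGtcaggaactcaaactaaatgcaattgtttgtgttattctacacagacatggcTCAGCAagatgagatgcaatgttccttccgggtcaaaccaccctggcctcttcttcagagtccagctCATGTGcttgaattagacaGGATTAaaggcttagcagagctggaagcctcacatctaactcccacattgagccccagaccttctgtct
Lrat, chr3:82903975-82904224, minus strand: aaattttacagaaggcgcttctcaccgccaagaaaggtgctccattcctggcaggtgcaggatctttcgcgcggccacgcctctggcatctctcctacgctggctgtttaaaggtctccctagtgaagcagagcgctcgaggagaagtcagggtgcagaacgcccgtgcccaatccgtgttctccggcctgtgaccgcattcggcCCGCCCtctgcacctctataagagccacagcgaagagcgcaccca
Rgr, chr14:37049015-37049264, minus strand: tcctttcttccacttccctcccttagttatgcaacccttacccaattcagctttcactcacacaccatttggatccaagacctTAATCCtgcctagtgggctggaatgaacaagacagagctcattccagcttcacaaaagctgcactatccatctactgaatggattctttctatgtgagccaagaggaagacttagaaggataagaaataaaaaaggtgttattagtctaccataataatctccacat

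The Rbp3 stretch holds GGATTA, the reverse complement of TAATCC, 69 bases before the start, along with TCAGCA (the reverse complement of TGCTGA) and CATGTG at 2 places. Rdh12 holds TGCTGA, Rgr holds TAATCC, Lrat holds CCGCCC (the reverse complement of GGGCGG), and Rdh8 holds none of the motifs searched. Among the members not shown, TAATCC was matched 58 bases before the start of Abca4 and 42 bases before that of Rpe65. So 4 of the 9 members had TAATCC in this window, from both the photoreceptor and the pigment epithelium side, against 5.82% of 21263 starts. TGCTGA was held by 3 members (Rdh12, Rbp3 and Rlbp1) and 14.9% of all starts, and CATGTG by 3 (Rbp3, Rlbp1 and Rpe65) and 10.1%. GGGCGG was held by 2 members (Rdh5 and Lrat) and 42.6% of starts, and ACAATG by 1 (Rdh5) and 9.35%. CACGTG, in 6.63% of starts, and AGGTCA, in 12.8%, were held by 0 members. No match in a member overlapped another. A match is a description of the letters and not of binding.

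The starts differed in their content of CpG dinucleotides, and accessibility did not follow it at every member. Rdh8 and Rgr had 0 CpG in these 250 bases, Rpe65 had 1, Rbp3 had 2, Rdh5 had 4, Rdh12 had 5, Rlbp1 had 6, Abca4 had 12 and Lrat had 18. Over all starts, an open region lay within 500 bp for 2.72% of the 3204 starts with 0 or 1 CpG, 14.8% of those with 2 to 5, 55.7% of those with 6 to 11 and 87.0% of the 9550 with 12 or more. Rdh8, with 131 insertions summed over both libraries, ranked 9 among the 3204 CpG-poor starts, whose median was 3. Rgr, with 39, ranked 54. Lrat stood at the other extreme: its CpG-rich start held 16 insertions, a count that 6.46% of the starts with 12 or more CpG did not exceed, where the median was 165. Rdh12 and Rbp3 were open with few CpG, and Rpe65, Rdh5 and Rlbp1 had no open region at the RefSeq start. Abca4 was open, like most starts of its class, and most starts in the classes of Rpe65 and Rdh5 were likewise not open.

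**Figure D1:**
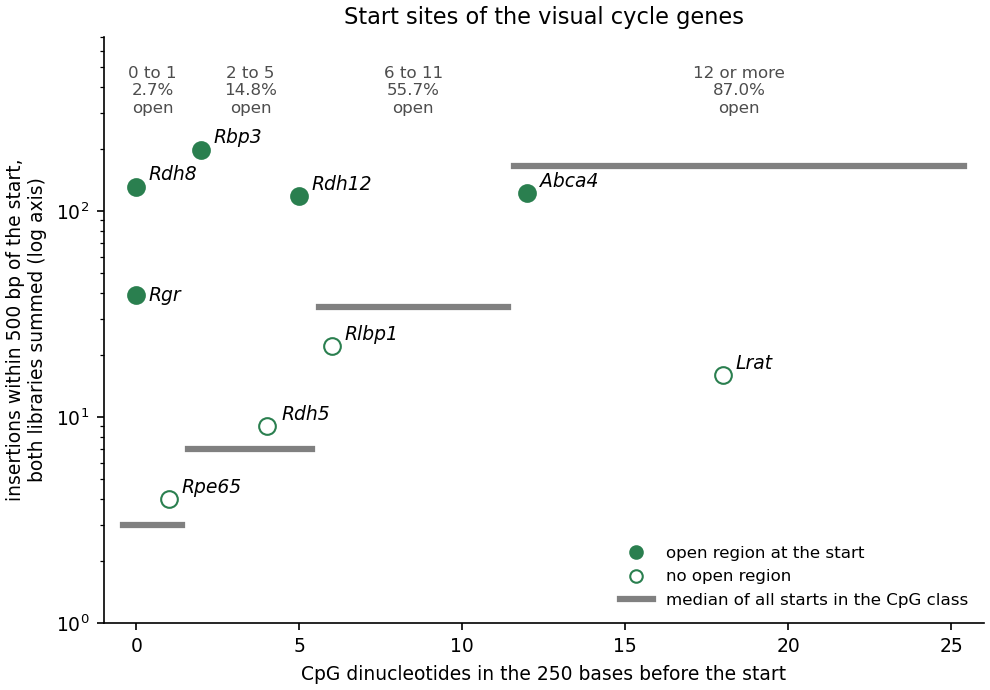
Number of CpG dinucleotides in the 250 bases before each RefSeq start (horizontal axis) against insertions within 500 bp of that start, summed over both libraries (log axis). Grey bars give the median of all starts in each CpG class, and the percentages give the share of starts in the class with an open region. The last class includes starts beyond the axis. Rdh8, Rgr, Rbp3 and Rdh12 lie above the median of their class and are open, while Lrat lies below its class median of 165 with 16 insertions. Abca4 also lies below that median but is open.

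The photoreceptor members held the most insertions of the set at their ends in both libraries, and Rbp3 also ranked among the densest loci of the genome. The locus, meaning the gene body with 5 kb either side, held 802 wild-type and 744 knockout insertions at Rbp3, or 39.7 and 36.8 per kb. That ranked 18 and 24 of 21887 loci by insertions per kb, at 14.1 and 13.1 times the genome mean. The signal was spread along the gene. Outside its open regions the locus still held 25.7 and 23.4 insertions per kb, or 9.15 and 8.34 times the genome mean, and the body without 1 kb at each end held 29.5 and 30.7 per kb. In the 20 bins of 1 kb from 5 kb before to 15 kb after the start, the counts ran from 3 to 120 with a median of 28.0 in wild type, and from 2 to 118 with a median of 25.5 in the knockout library.

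Rbp3 had 5 open regions, of which 3, a pair before the gene and the start itself, held most of the insertions inside open regions. These were 550, 650 and 450 bp wide, so their counts below are not per length. The region centred 3.73 kb before the start (chr14:33950001-33950550) held 104 wild-type and 109 knockout insertions. The region centred 1.38 kb before it (chr14:33952301-33952950) held 111 and 106. The region at the start (chr14:33953751-33954200) held 88 and 67. Weaker regions lay 5.52 kb after the start, inside the gene, with 26 and 30, and 11.1 kb after it, beyond the gene, with 12 and 11.

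Abca4, the longest member at 136 kb, had the most open regions, 10 along its locus against a median of 1 over all genes. That count is not per length, since the locus spans 146 kb. At equal depth, 7 regions of Abca4 were called in each library alone. Its locus held 1257 wild-type and 1269 knockout insertions, or 8.60 and 8.68 per kb, at percentiles 75.9 and 76.2 of all loci. The region over the start (chr3:122043851-122044650) held 66 and 61. The regions inside the gene, 9.32, 52.5, 60.2, 77.8, 96.5 and 125 kb after the start, held from 10 to 28 wild-type and from 13 to 26 knockout insertions each, so single regions of this gene carry wide counting error. Regions beyond the gene, 138 and 140 kb after the start, held 7 and 7 and 12 and 10. A region 1.11 kb before the start held 13 and 22. The RefSeq start lies 569 bp inside the gene end, and the windows at these points held 60 and 62 and 54 and 43.

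Rdh8 and Rdh12, the short dehydrogenase genes, shared a layout of an open start and another open region shortly after it. At Rdh8 the region over the start (chr9:20818201-20818700) held 73 wild-type and 40 knockout insertions. Its companion, 1.71 kb after the start (chr9:20819951-20820450), held 46 and 46, and a region 12.6 kb after the start, beyond the gene, held 40 and 34. At Rdh12 the region over the start (chr12:79208651-79209100) held 51 and 48, the region 1.61 kb after it held 18 and 15, and a region 7.41 kb after it (chr12:79216101-79216550) held 37 and 39. The loci held 287 and 254 insertions for Rdh8 (14.7 wild-type and 13.0 knockout per kb) and 268 and 296 for Rdh12 (11.3 and 12.5 per kb), against the 4.87 and 4.92 per kb of the median locus.

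**Figure D2:**
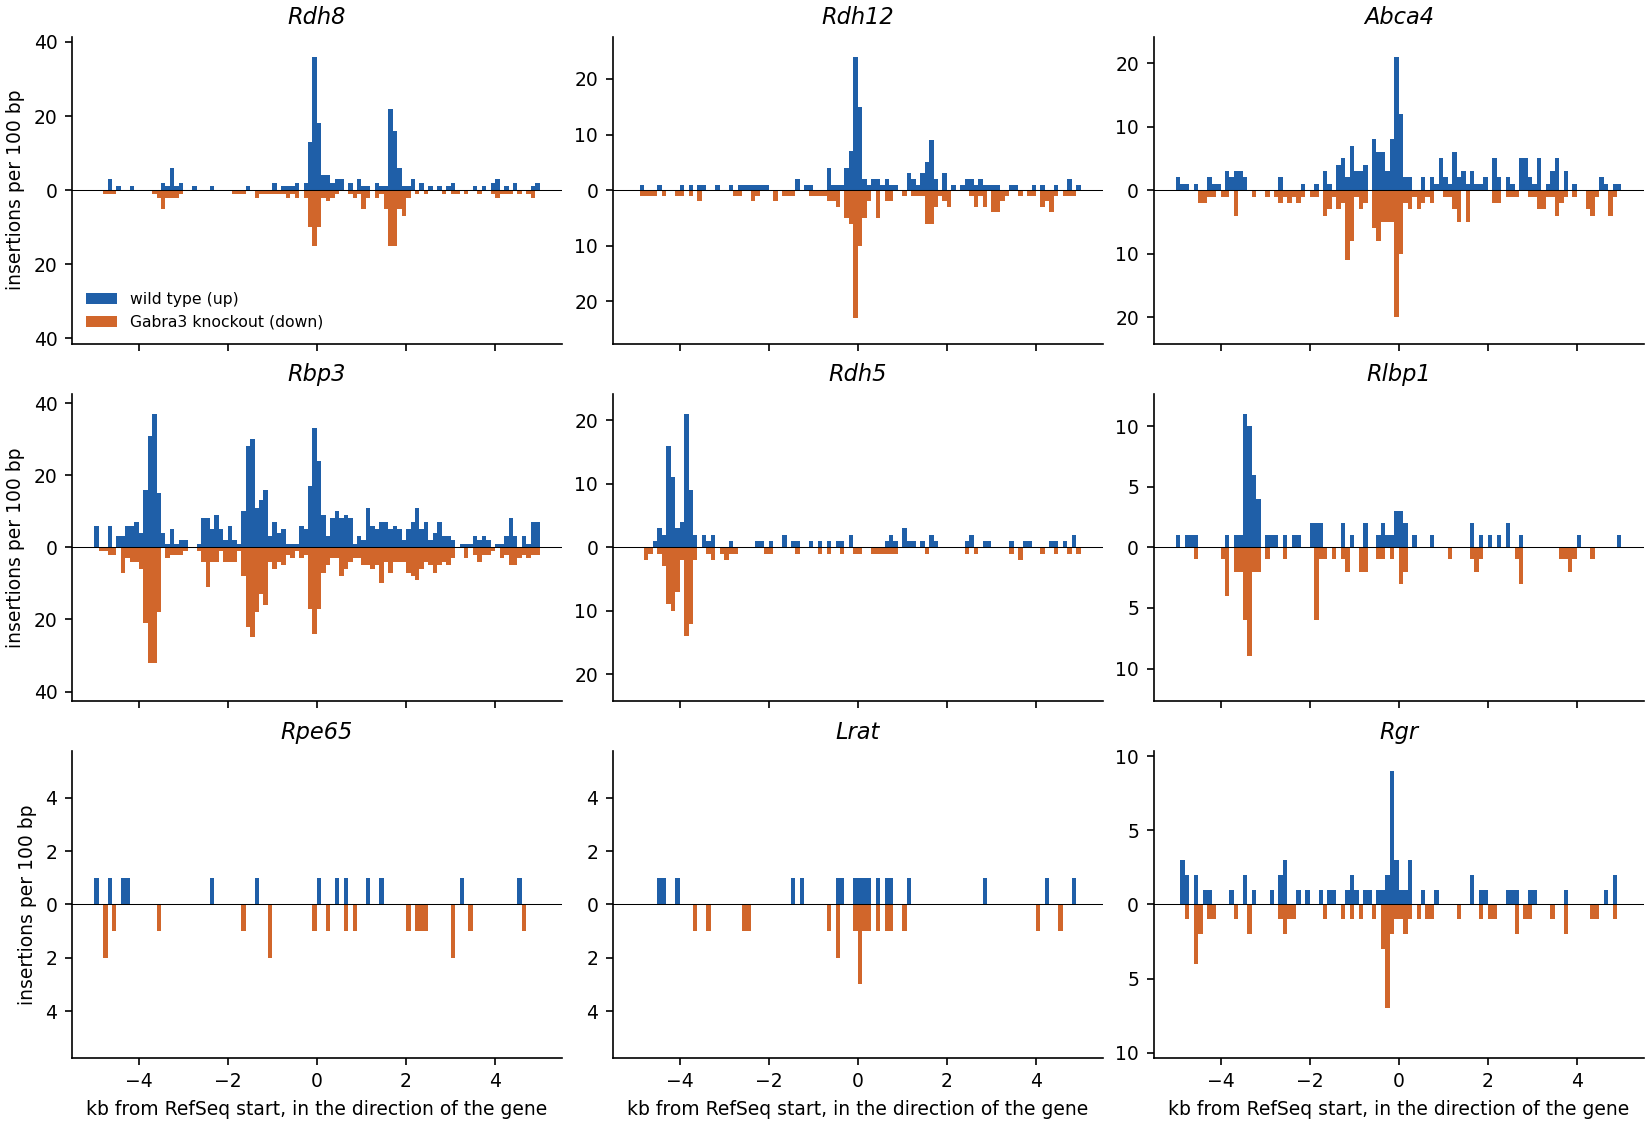
Insertions per 100 bp from 5 kb before to 5 kb after the RefSeq start of each member, with wild type drawn upward and the Gabra3 knockout library downward, each panel on its own scale. Peaks stand at the start of Rdh8, Rdh12, Abca4, Rbp3 and Rgr in both libraries, Rbp3 has further peaks 1.38 and 3.73 kb before it, and no 100 bp bin of Rpe65 or Lrat holds more than 3 insertions in a library.

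The genes known from the pigment epithelium ranged from closed to moderately open, and at Rdh5 and Rlbp1 the signal at the gene end lay close to a neighbouring gene. Rpe65 was the least accessible member. Its end held 1 wild-type and 2 knockout insertions and its locus 28 and 45, or 0.773 and 1.24 per kb, which is 0.276 and 0.442 of the genome mean. Lrat followed, with 7 and 9 insertions at its end and 37 and 42 over its locus (1.73 and 1.96 per kb). Few as they were, the insertions at the Lrat end were 5.83 and 6.92 times as dense as in the flanking 10 kb. These flanks held 12 and 13 insertions, so the multiples carry wide counting error. Rdh12 had 7.10 and 6.14, with 83 and 96 in its flanks, which include its open region 1.61 kb after the start. Neither Rpe65 nor Lrat had an open region, in the summed libraries or in either library at equal depth, whereas 68.7% of all genes did. Of the reads placed at the Lrat locus, all 38 in wild type and 97.8% of the 45 in the knockout library passed the mapping quality minimum of 10.

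Rgr was the only gene of this side with an open region at its own start (chr14:37049001-37049400), with 15 wild-type and 13 knockout insertions. The window of 500 bp either side held 21 and 18, at percentiles 55.5 and 54.0 of gene ends. The gene overlaps Lrit1, which runs the other way and starts 5.82 kb from the Rgr start.

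At Rlbp1 the gene end with more insertions (33 and 29) lies 62 bp from the nearer end of Fanci, a DNA repair gene, and 88 bp from its RefSeq start, so those insertions cannot be assigned to Rlbp1. The RefSeq start of Rlbp1, 5223 bp away, held 14 and 8 insertions and no open region. An open region with no neighbouring gene end (chr7:79390151-79390650), 3.37 kb before that start and inside the annotated gene, held 32 and 21. Another, 15.3 kb after it and beyond the gene, held 13 and 5. At Rdh5 the end with more insertions (16 and 18) was the end opposite the start. It lies 766 bp from the end of Cd63, a tetraspanin gene, that is opposite the Cd63 start. The RefSeq start of Cd63 is 4243 bp away. An open region in this window (chr10:128913251-128913500) held 8 and 11. The RefSeq start of Rdh5 held 4 and 5. The strongest region near Rdh5 (chr10:128922901-128923750; 70 and 59) lies at the start of Bloc1s1, 4.03 kb before the Rdh5 start. Without the windows at ends of neighbouring genes, the Rdh5 locus held 108 and 91 insertions in place of 187 and 159, the largest drop of the 5 genes. The RefSeq start of Cd63 lies inside the annotated gene, so its window was not removed. An open region near that start (chr10:128909551-128909950; 20 and 14) is still in the 108 and 91. Summed over the 5, the same step left 458 of 573 wild-type and 445 of 546 knockout insertions.

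**Figure D3:**
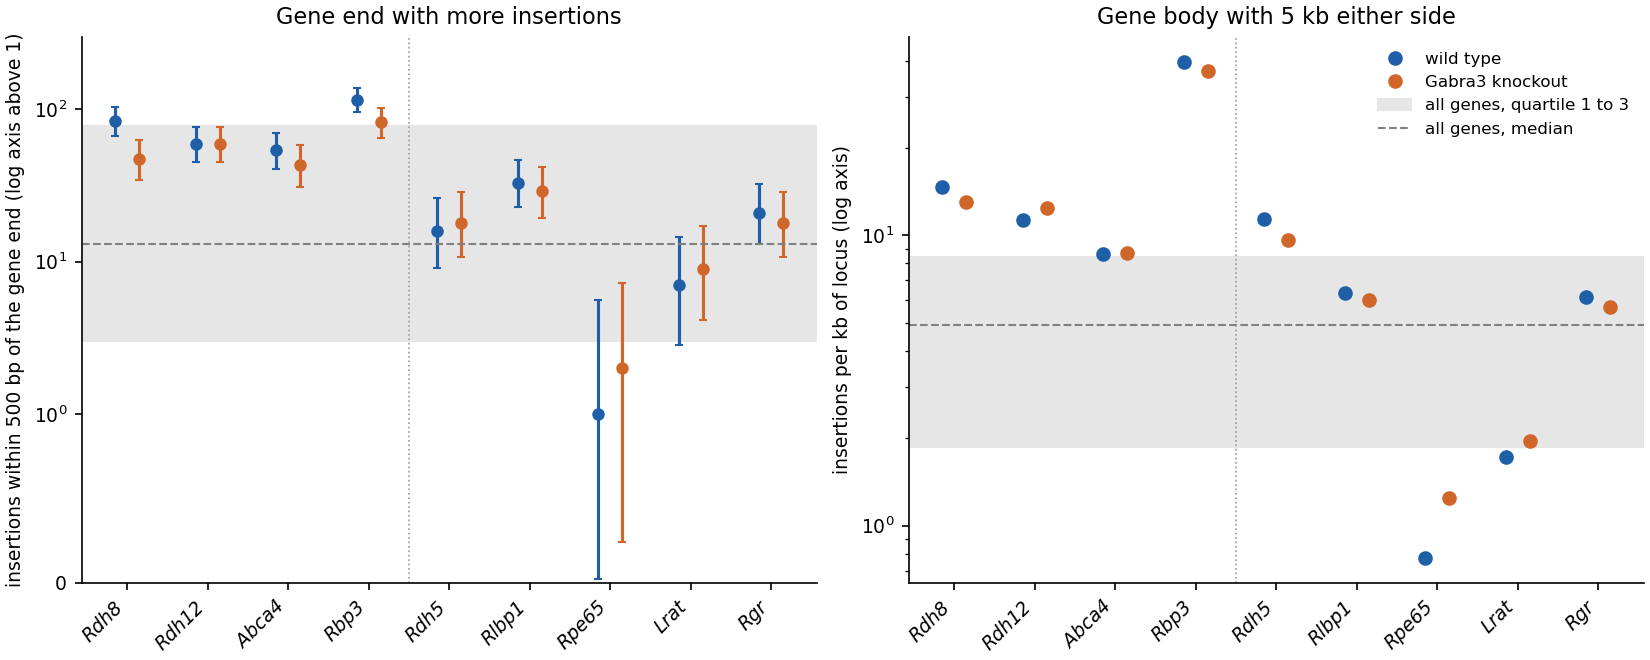
Levels of the 9 members in the wild-type and Gabra3 knockout libraries, as insertions within 500 bp of the gene end with more insertions (left, bars are exact Poisson 95% intervals) and as insertions per kb of locus (right). The grey band spans the quartiles of all genes and the dashed line their median of 13 insertions per end. Genes left of the dotted line are known from photoreceptors, and Rpe65 and Lrat lie lowest in both panels.

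In order of insertions at the gene end, the wild-type library ran Rbp3 (116), Rdh8 (84), Rdh12 (59), Abca4 (54), Rlbp1 (33), Rgr (21), Rdh5 (16), Lrat (7) and Rpe65 (1). In the knockout library it ran Rbp3 (82), Rdh12 (59), Rdh8 (47), Abca4 (43), Rlbp1 (29), Rdh5 and Rgr (18 each), Lrat (9) and Rpe65 (2). The windows are of equal length. The 4 photoreceptor members lay above the other 5 in both orders. The exact Poisson 95% intervals of neighbours in these orders overlapped at every step in both libraries. That includes the border between the groups, where Abca4 had 40.6 to 70.5 and Rlbp1 22.7 to 46.3 in wild type, and 31.1 to 57.9 and 19.4 to 41.6 in the knockout library.

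Between the libraries, the largest difference among members with at least 100 insertions lay at the start of Rdh8. The window held 84 wild-type and 47 knockout insertions, which gives -0.77 (-1.33 to -0.25). Of the 3 member ends with at least 100 insertions it was the only 1 past 1.5-fold, and 0.226% of the 7509 gene ends with that many were 1.5-fold or more lower in the knockout library and 0.519% higher. It ranked 4 from the lowest of those ends, so it is an extreme of a long list. Split by strand, the same insertions were 44 and 21 from plus-strand reads and 40 and 26 from minus-strand reads. This split is not separate support. By sequencing lane, a technical split of the same libraries, the counts were 24 and 12, 15 and 15, 28 and 13, and 17 and 7, so 3 of the 4 lanes held fewer knockout insertions and lane 2 did not. Along the window, from 200 to 1 bp before the start the counts were 49 and 25, in the 200 bp from the start onward 22 and 12, and from 500 to 201 bp before it 4 and 4.

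The other open regions of the Rdh8 locus gave ratios nearer 0. The open region 1.71 kb after the start gave 0.06 (-0.56 to 0.68) and the region beyond the gene -0.17 (-0.88 to 0.52). These intervals overlap that of the region at the start (-0.80, -1.40 to -0.23), so at this depth the regions of the gene are not shown to differ in ratio. Outside open regions the locus held 128 and 134 insertions (0.12, -0.24 to 0.49), and over the whole locus the ratio was -0.12 (-0.37 to 0.13). The opposite gene end held 4 and 9, or 1.14 (-0.61 to 3.38).

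Rbp3 was the other member with an interval below 0 at its end, and both the width of the window and the mapping quality minimum moved that interval across 0. The 500 bp either side of the end gave 116 and 82 insertions, or -0.44 (-0.87 to -0.02), and 0.972% of gene ends with at least 100 insertions had an interval wholly below 0. A window of 250 bp either side gave 89 and 70, or -0.29 (-0.76 to 0.18), and a window of 1000 bp gave 163 and 126, or -0.31 (-0.66 to 0.03). A mapping quality of at least 30 gave 110 and 79, or -0.41 (-0.85 to 0.02). The upstream regions of Rbp3 gave ratios near 0, at 0.13 (-0.27 to 0.53) for the region 3.73 kb before the start and -0.01 (-0.41 to 0.39) for that 1.38 kb before it. Rdh12 gave 0.06 (-0.49 to 0.60) with 59 insertions at its end in each library. Its locus gave 0.20 (-0.04 to 0.45), and the locus outside open regions held 162 and 194, or 0.32 (0.01 to 0.63). Scaling to all autosomal insertions, which lowers every ratio by 0.06, would carry this last interval across 0. Abca4 gave -0.27 (-0.88 to 0.34) at its end and 0.11 (-0.43 to 0.64) at its RefSeq start, so its direction turned with the choice of window.

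Summed over the 4 photoreceptor members, gene ends held 313 insertions in wild type and 231 in the knockout library, or -0.38 (-0.63 to -0.13). Without Rdh8 the sum was 229 and 184, or -0.26 (-0.54 to 0.03). At RefSeq starts all 4 held 319 and 250, or -0.29 (-0.54 to -0.05). Without Rdh8 these starts held 235 and 203, or -0.15 (-0.43 to 0.13). Rod markers as a list had 1475 and 1316 at their ends (-0.11, -0.21 to 0.00), and cone markers 195 and 222 (0.25, -0.04 to 0.53). The part of these lists in the result was not tested. With 1 library per genotype, a difference between library preparations cannot be told apart from a difference between genotypes. Nor can a smaller share of photoreceptor nuclei be told apart from less accessible DNA per nucleus in bulk libraries.

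Away from the starts the summed ratio of the photoreceptor members lay near 0. Their 17 open regions centred over 500 bp from the RefSeq start held 533 and 543 insertions, or 0.09 (-0.09 to 0.26), and their 4 regions at the start held 278 and 216, or -0.30 (-0.57 to -0.04). Without Rdh8 the 3 remaining start regions held 205 and 176, or -0.16 (-0.46 to 0.14). Over whole loci the 4 genes held 2614 and 2563 insertions, or 0.03 (-0.05 to 0.11).

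**Figure D4:**
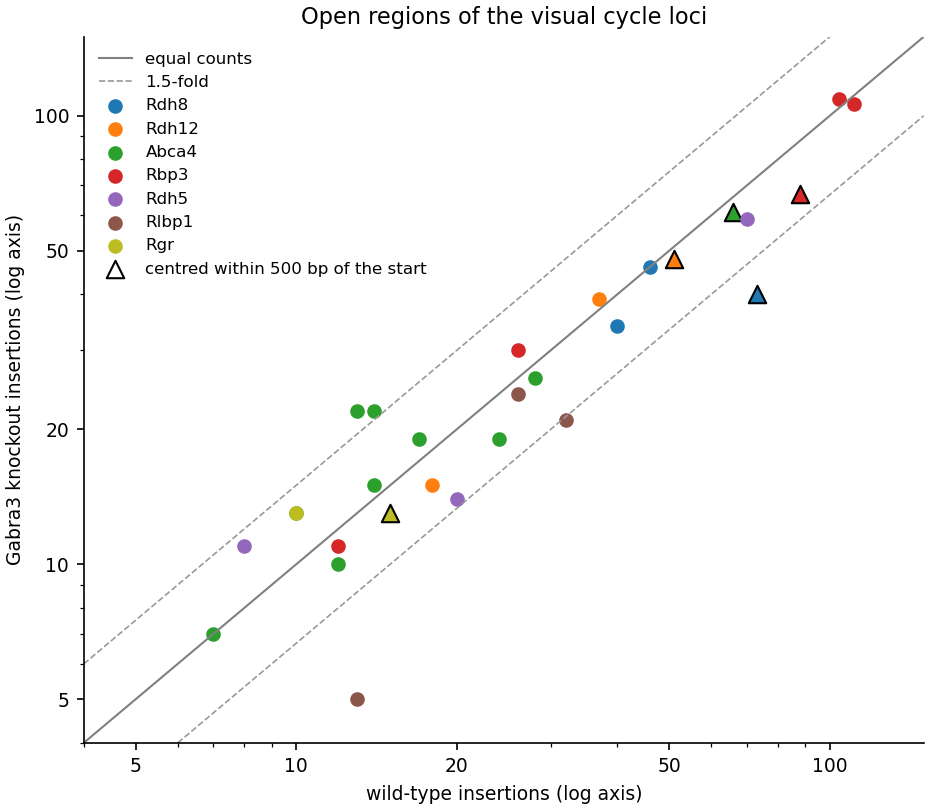
Insertions in each of the 29 open regions of the visual cycle loci, wild type against Gabra3 knockout, as unscaled counts on log axes. Triangles are regions centred within 500 bp of the RefSeq start, and the points of Abca4 and Rgr at 10 and 13 coincide. The Rdh8 start, at 73 and 40, lies below the lower dashed 1.5-fold line, as does an Rlbp1 region at 13 and 5. Another Rlbp1 region, at 32 and 21, lies barely below it and gives -0.54 after scaling, within 1.5-fold. Abca4 regions at 13 and 22 and at 14 and 22 lie above the upper dashed line. The upstream regions of Rbp3 lie close to the line of equal counts.

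Among all 29 open regions of the members, those with fewer than 20 insertions included, 17 had a ratio below 0 and 12 above. Among all open regions with at least 20 insertions, 51% lay below 0. Of the 26 with at least 20 insertions, 2 were 1.5-fold or more higher in the knockout library and 1 was lower, where 5.45% and 7.86% of all open regions with that many insertions were past these limits. The higher regions belonged to Abca4, 1.11 kb before its start (13 and 22; 0.80, -0.23 to 1.93) and 52.5 kb after it (14 and 22; 0.69, -0.32 to 1.79). The lower was the Rdh8 start, the only region of the 29 with an interval that did not include 0, where 1.61% of all such open regions had an interval below 0 and 1.5% above. With at least 100 insertions the members had 6 regions, of which the Rdh8 start was past 1.5-fold, against 0.373% of all regions lower and 0.531% higher. Called in each library alone at equal depth, 21 of the 29 were found in both, 3 in wild type only, 2 in the knockout library only and 3 in neither. Over the whole genome, calls at equal depth numbered 26591 in wild type and 23815 in the knockout library. How many of all 36825 regions were found in both was not counted, so the split of the 29 has no background.

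For the pigment epithelium and Muller glia members, the interval at each gene end included 0. Together their ends held 78 wild-type and 76 knockout insertions (0.02, -0.45 to 0.50), and their loci 573 and 546 (-0.01, -0.18 to 0.16). The end sum includes the Rlbp1 and Rdh5 ends that lie close to neighbouring genes. Without Rdh5 and Rlbp1 the ends held 29 and 29 (0.06, -0.73 to 0.85). The RefSeq starts of all 5 held 48 and 42 (-0.13, -0.77 to 0.49). The locus of Rpe65 had the largest ratio of any locus in the set, 0.73 (0.03 to 1.48) from 28 and 45 insertions. It fell under the minimum of 100 insertions, and 2.46% of loci with at least 20 were 1.5-fold or more higher in the knockout library. The counts rested on mapping as well: 80.0% of the 35 wild-type reads placed at Rpe65 and 97.8% of the 46 knockout reads passed the quality minimum, and with no minimum the ratio was 0.45 (-0.21 to 1.13). Scaled to all autosomal insertions it was 0.67 (-0.03 to 1.42). Lrat gave 0.24 (-0.43 to 0.92) over its locus, Rgr -0.06 (-0.41 to 0.28), Rlbp1 -0.02 (-0.34 to 0.30) and Rdh5 -0.17 (-0.49 to 0.14).

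Of the 9 members, 7 had at least 20 insertions at the end, 5 of these below 0 and 2 above, with a median of -0.16. Past 1.5-fold was Rdh8 alone, against 3.31% of gene ends with that many lower and 4.07% higher. The median of all 11893 gene ends with that many was 0.02, and 46.4% of them lay below 0. At locus level all 9 had at least 20 insertions, again 5 below 0, with a median of -0.02. All loci with that many had a median of 0.06, with 35.2% below 0. Of the 7 member loci with at least 100 insertions, 0 were past 1.5-fold, against 0.365% of such loci higher and 0.0658% lower.

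**Figure D5:**
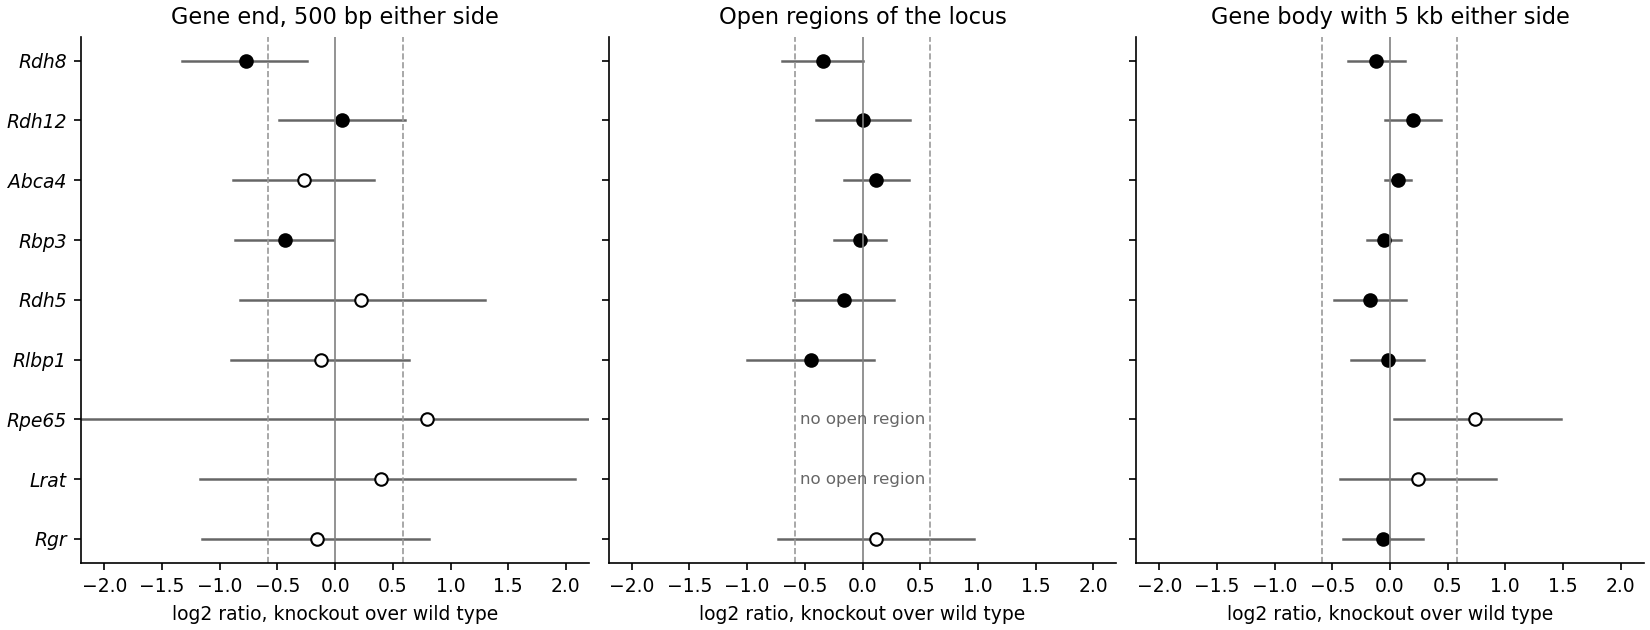
Log2 ratio of knockout over wild type for each member at its gene end, over the open regions of its locus and over its locus, with exact 95% counting intervals. Filled points have at least 100 insertions summed, dashed lines mark 1.5-fold, and the interval of the Rpe65 end runs beyond the axis. The Rdh8 end is the only filled point past 1.5-fold.

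The other 30 genes of retinoid transport and metabolism that were listed held 1092 wild-type and 1089 knockout insertions at their ends (0.06, -0.07 to 0.18). Of the 15 with at least 20 insertions, 12 lay above 0 and 3 below, 0 were past 1.5-fold, and the median was 0.10. Most accessible were Dgat1, an acyltransferase that can esterify retinol (187 and 185), Rdh14, a retinol dehydrogenase (137 and 140), and Scarb1, a scavenger receptor that takes up carotenoids (120 and 100). The largest ratios belonged to Cyp26c1, which breaks down retinoic acid (9 and 13; 0.57, -0.75 to 2.00), Stra6, the cell-surface receptor of plasma retinol-binding protein (9 and 11; 0.33, -1.06 to 1.80), and Dhrs3, which reduces retinal (77 and 60; -0.30, -0.81 to 0.20). Each of these intervals included 0. An open region lay at the locus of 21 of the 30.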

How the data were processed

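The authors deposited aligned 75 bp reads with coordinates, strand and read name, and a score that ranges from 0 to 37 and was used as the mapping quality. Trimmomatic 0.33, BWA and bedtools 2.23.0 with GRCm38 are named in the submitters' processing notes, without roles. The handling of duplicates is not given in the sources used here.

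Reads with mapping quality of at least 10 were reduced to 5-prime ends, shifted by 4 bp (plus strand) or -5 bp (minus strand), and counted once per position and strand, which removed 11.0% of wild-type and 9.41% of knockout reads. PCR repeats and independent insertions at 1 site cannot be told apart, so strong sites are compressed. Open regions came from both libraries summed, in sliding 200 bp windows (step 50 bp) whose count exceeded the genome mean and the 10 kb local mean at Poisson p under 1e-05, and calls within 150 bp were joined. Gene ends, loci and RefSeq starts came from RefSeq tables of GRCm38, and all 9 members matched. Ratios used a pseudocount of 0.5. The scripts (Python 3.11.15, SciPy 1.17.1) were tested on simulated data. The members, gene lists and motifs were chosen with earlier results of these data known. Named genes were all members and, of the other retinoid genes, 3 chosen for insertion count and 3 for size of ratio at 20 or more insertions. RefSeq start windows, sums without single members, masking of neighbouring ends, CpG classes and bins within Rdh8 and Rbp3 were added after seeing the data.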

Additional observations from a re-analysis of the deposited data

How the results depend on the processing

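No paired analysis was possible because each genotype had 1 library. Mapping quality, repeats, scaling, pseudocount, shift, window, flanks, region threshold, lane and the choice of gene end were varied. The Rdh8 end ratio of -0.77 ran from -0.83 to -0.69 over the settings other than lane and gene end, but was 0.066 in lane 2 alone and 1.14 at the other gene end, which held 4 and 9 insertions. Lanes alone also moved the ends of Abca4 (0.34 in lane 2, -1.60 in lane 4), Lrat (-2.74 in lane 2), Rbp3 (0.057 in lane 4) and Rdh5 (-1.16 in lane 2). The other gene end gave 1.01 for Abca4 and -0.83 for Rdh12. Without flanks the Rdh5 locus gave -0.55, and without Rdh5 and Rlbp1 the summed open regions of the pigment epithelium and Muller glia members gave 0.11 in place of -0.22. The cause of these moves was not tested, beyond the fewer insertions that each lane or far end holds.

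Over all gene ends with at least 100 insertions, 39 were 1.5-fold or more higher and 17 lower in the knockout library. With all reads kept these counts were 79 and 38, with all autosomal insertions as the scale 21 and 34, with a minimum of 20 insertions 484 and 394, and with a minimum of 200 they were 2 and 1. A window of 250 bp gave 23 higher. At 2-fold the counts were 0 and 0, but 2 higher with all reads kept, and 110 and 74 with a minimum of 20. Of the other retinoid genes, 1 was 1.5-fold higher with all reads kept and 1 with a window of 1000 bp, and those below 0 numbered 6 with the autosomal scale and 8 with the window of 1000 bp, in place of 3. Depth limits the single open regions most, since 6 of the 29 held at least 100 insertions.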
